A study of Mus musculus with 30 samples.

Results

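Oxidative phosphorylation is carried out by 5 protein complexes of the inner mitochondrial membrane, and the genes described here are those that encode their subunits. The members were all genes of the count table whose symbol begins as a subunit of complex I (Nduf), II (Sdh), III (Uqcr), IV (Cox4 to Cox8) or V (Atp5), or with the prefix mt- of the mitochondrial genome. There were 98 such genes among the 21841 in the table, of which 85 are encoded in the nucleus and 13 in mitochondrial DNA. After the filter on low counts 94 were tested (81 nuclear and 13 mt-). Cox4i2, Cox6a2, Cox7b2 and Cox8c did not pass it. The mitochondrial ribosomal and transfer RNAs were not analysed here.

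Complexes I to IV pass electrons from NADH and succinate to oxygen. Complexes I, III and IV also pump protons, and complex V (ATP synthase) uses the proton gradient to make ATP. Complex II is encoded wholly in the nucleus, whereas the other complexes each combine nuclear subunits with subunits made from mitochondrial DNA. Several complex IV subunits exist as a general isoform and as an isoform of heart and skeletal muscle, and some of the latter are also used by brown fat, where the uncoupling protein Ucp1 lets protons return without making ATP.

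The samples were 30 bulk RNA libraries from mammary tumors of FVB/N-Tg(MMTV-PyVT)634Mul/J, a mouse strain in which the MMTV promoter drives the polyoma middle T oncogene in mammary epithelium and tumors arise spontaneously. All groups shared this strain and the transgene, and the labels listed the genotype as WT and gave no age. The 6 groups of 5 tumors received vehicle, 5-FU (5-fluorouracil, 40 mg/kg every 4 days), gemcitabine (64 mg/kg every 7 days), KCL-HO-1i (an inhibitor of the heme-degrading enzyme heme oxygenase-1, 25 µmol/kg daily), KCL-HO-1i with 5-FU, or KCL-HO-1i with gemcitabine, for 72 h before collection. Doses and times here follow the labels. In the study's own text the treatment is shorter and the gemcitabine dose lower. The comparisons asked how the inhibitor acts alone and with each chemotherapy. In bulk tissue, fewer cells of a type and less RNA per cell cannot be told apart.

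Library totals were between 10067577 and 13622264 counts. Hmox1, which encodes heme oxygenase-1, had a mean of 49.4 CPM (counts scaled to a common library size) with vehicle and 153 CPM with KCL-HO-1i (exact permutation test, two-sided, p = 0.0556, n = 5 per group), 38.8 CPM with 5-FU and 356 CPM with KCL-HO-1i/5-FU (exact p = 0.0159), and 37.3 CPM with gemcitabine and 202 CPM with KCL-HO-1i/gemcitabine (exact p = 0.00794). The KCL-HO-1i/5-FU tumors were at 189, 63.6, 1198, 222 and 107 CPM, a mean of 145 CPM without replicate 3. The luminal keratin gene Krt8 was present in all 30 tumors, between 567 and 1611 CPM. Replicate 4 of the KCL-HO-1i group stood apart from the other 29 tumors in most members and in brown fat genes. The Ucp1 level was 1681 CPM in that tumor and at most 53.2 CPM elsewhere, and the 8 brown adipocyte markers summed to 3080 CPM there and to at most 125 CPM in any other tumor. The 20 skeletal muscle markers summed to 5567 CPM there, to 16726 CPM in replicate 2 of KCL-HO-1i/gemcitabine, and to between 4.51 and 55.5 CPM with vehicle. The white adipocyte markers summed to 9727 CPM in the former and 14109.5 CPM in the latter, which was the highest of the 30. Results that rest on KCL-HO-1i replicate 4 are therefore given with and without it.

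The share of all counts from the 13 mt- genes overlapped between all treatment groups, and single tumors lay far above the rest. With vehicle the share was 2.87%, 2.23%, 2.49%, 1.98% and 1.83% in the 5 tumors, a mean of 2.28% ± 0.417 (SD, n = 5). With 5-FU it was 2.62%, 1.82%, 1.89%, 3.12% and 2.56%, and with gemcitabine 1.92%, 2.11%, 2.75%, 1.68% and 2.58%. Both chemotherapy groups overlapped the vehicle group across most of its range. With KCL-HO-1i the share was 1.44%, 3.51%, 2.26%, 9.69% and 2.25%, so this group held both the lowest and the highest of the 30 values. Its mean was 3.83% ± 3.36 (SD, n = 5), and 2.36% ± 0.859 (SD, n = 4) without replicate 4. The combinations gave 2.50%, 2.10%, 3.47%, 2.09% and 2.91% for KCL-HO-1i/5-FU, and 3.32%, 4.54%, 2.11%, 1.95% and 2.77% for KCL-HO-1i/gemcitabine. The second highest of all tumors, at 4.54%, was the one with the highest muscle and white adipocyte marker sums. It also had the highest fibroblast and pericyte sum (12223.5 CPM) and endothelial sum (428 CPM), and its luminal marker sum of 3018 CPM was the lowest but for KCL-HO-1i/5-FU replicate 3 (2898 CPM). The part of these tissues in the mt- shares was not tested. The sample descriptions hold codes with a number whose meaning is not given. KCL-HO-1i/gemcitabine replicate 2 shares its code number with the next highest tumors, KCL-HO-1i replicate 2 (3.51%) and KCL-HO-1i/5-FU replicate 3 (3.47%). KCL-HO-1i replicate 3 has the same number, at 2.26%. This number occurs only in groups given KCL-HO-1i, and its part in these shares was not tested.

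The nuclear members were more even between tumors. Their share was 1.35%, 1.29%, 1.25%, 1.13% and 1.25% with vehicle (1.25% ± 0.0811, SD, n = 5). It was 1.25%, 1.35%, 1.28%, 1.65% and 1.20% with 5-FU, and 1.28%, 1.30%, 1.84%, 1.23% and 1.33% with gemcitabine, where replicate 3 alone was above 1.33%. KCL-HO-1i gave 1.30%, 1.24%, 1.36%, 2.44% and 1.47%, with a mean of 1.56% ± 0.496 (SD, n = 5), and of 1.34% ± 0.0991 (SD, n = 4) without replicate 4. The KCL-HO-1i/5-FU tumors held the lowest values, at 1.28%, 1.09%, 1.03%, 1.08% and 1.19% (1.14% ± 0.103, SD, n = 5), and they overlapped the vehicle and 5-FU tumors only at their upper end. KCL-HO-1i/gemcitabine gave 1.51%, 1.52%, 1.31%, 1.17% and 1.33%. KCL-HO-1i replicate 4 (2.44%) and 5-FU replicate 4 (1.65%), each the highest of its group, share a code number. These shares are descriptions without a test.

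**Figure D1:**
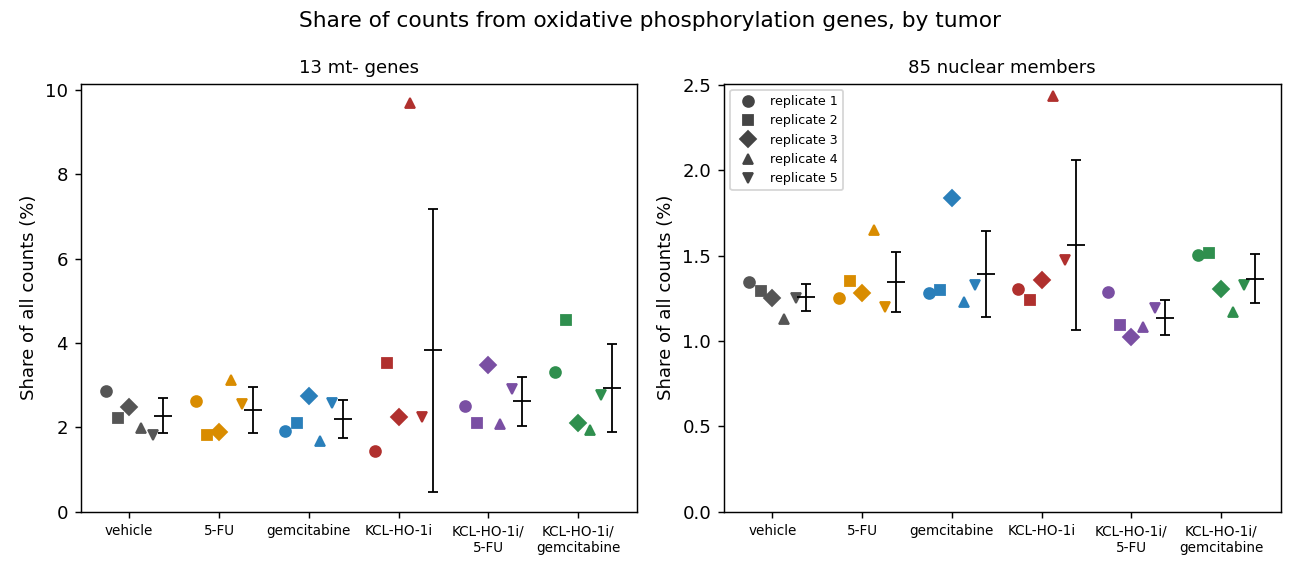
Share of all counts (%) from the 13 mt- genes (left) and the 85 nuclear members (right) in each tumor, by treatment group, with symbols for the replicate number and the mean ± SD of each group as a black bar. KCL-HO-1i replicate 4 lies at 9.69% and 2.44%, above the other 29 tumors in both panels.

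The mitochondrial and nuclear parts did not move in step in every tumor. Replicate 3 of KCL-HO-1i/5-FU had the lowest nuclear share of all, 1.03%, beside a mt- share of 3.47%, a ratio of mt- to nuclear counts of 3.38 against a median of 1.91 over the 30 tumors. Replicate 1 of KCL-HO-1i had the lowest mt- share, 1.44%, with a nuclear share of 1.30%, and the lowest ratio, 1.10. Over the 30 tumors, the log2 sums of the mt- and nuclear members gave Pearson's r = 0.64 and Spearman's rho = 0.34. Without KCL-HO-1i replicate 4 the values were 0.28 and 0.27. Both sums come from the same libraries and share a denominator, and the coefficients are descriptions only.

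Among the mt- genes, mt-Co1 and mt-Co2 of complex IV were the most abundant per base of gene length. Relative to mt-Co1, the catalytic subunit of complex IV, the count per base was 0.975 for mt-Co2, 0.581 for mt-Cytb (the only mitochondrially encoded subunit of complex III), 0.561 for mt-Atp6, 0.545 for mt-Nd1 and 0.353 for mt-Co3, the remaining mitochondrially encoded subunit of complex IV, each a median over the 30 tumors. The lowest were mt-Nd5, mt-Nd4l and mt-Nd6 at 0.165, 0.146 and 0.133, and mt-Nd6 (chrM:13552-14070, mm10) is the only member on the minus strand of mitochondrial DNA. All the Nd genes encode subunits of complex I. The gene pairs mt-Atp8 with mt-Atp6 and mt-Nd4l with mt-Nd4 overlap in the annotation, so how the estimated counts were divided between them is uncertain. All 13 genes were at their highest in KCL-HO-1i replicate 4, by between 1.56 (mt-Nd3) and 2.69 (mt-Nd4) on the log2 scale above the median of the other 29 tumors. Their proportions also differed there. The subunit gene mt-Nd4 took 9.64% of mt- counts in that tumor, the highest of the 30 (median 7.25%), and mt-Co3 took 3.84%, the lowest (median 5.38%). In CPM, mt-Nd4 was 1957, 1555, 1689, 1479 and 1217 in the vehicle tumors and 1002, 2839, 1553, 10064 and 1526 in the KCL-HO-1i tumors. Besides replicate 4, KCL-HO-1i replicate 2 was above all vehicle tumors and replicate 1 below them all.

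Most nuclear subunits were high or low in the same tumors. Each nuclear member outside the tissue isoforms was set against the median log2 deviation of the others over the 29 tumors other than KCL-HO-1i replicate 4, and 72 of 77 had a Spearman rho over 0.5, with a median of 0.80. Both values of a point come from the same library, and the coefficients are descriptions. The small complex V subunit gene Atp5k (0.94) and the complex I gene Ndufb8 (0.92) followed the others most closely. The least close were Atp5h (0.14), a subunit of the ATP synthase stalk, Sdha (0.25), the flavoprotein of complex II, and Ndufs1 (0.43), Atp5a1 (0.43) and Atp5b (0.47), which encode the largest complex I core subunit and the alpha and beta subunits of the ATP synthase head.

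In KCL-HO-1i replicate 4 the nuclear complexes were raised unequally. The median deviation from the other 29 tumors was 0.89 on the log2 scale over the 77 genes, and 56 of them were at their highest of the 30 tumors there. Complex II stood furthest out, with a median of 1.53 over its 4 genes, and Sdha was 1147 CPM against a median of 256 CPM elsewhere. Complex III followed at 1.23 (8 genes), then complex IV at 0.97 (11 genes), complex I at 0.89 (37 genes) and complex V at 0.52 (17 genes). Complexes were assigned by the start of the symbol, so Ndufa4, a subunit of complex IV, was counted with complex I. The core subunits of complex I were near the top, with Ndufs1 at 375 CPM against a median of 94.3 CPM and Ndufv1, which binds NADH, at 451 CPM against 125 CPM. In complex V the head subunits Atp5a1 (1.02) and Atp5b (1.39) were above the other tumors. The 3 genes of the membrane ring subunit were not, with log2 deviations of -0.48 for Atp5g1, -0.12 for Atp5g2 and -0.12 for Atp5g3, and Atp5g1 was at its lowest of the 30 tumors, 119 CPM.

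Other tumors that departed from the middle did so with smaller median shifts. In gemcitabine replicate 3 all 77 genes were above the median of the other tumors, by 0.56 in the median, and 14 were at their highest of the 30, among them Cox6b1 (589.9 CPM). The mt- genes of that tumor were 0.33 higher in the median. In KCL-HO-1i/5-FU replicate 4, 43 of the 77 were at their lowest of the 30, with a median deviation of -0.43, and 2 were above the median of the other tumors, Atp5h by 0.70 and Ndufs5 by 0.02. KCL-HO-1i/gemcitabine replicate 2, the tumor with the highest muscle marker sum, had a median of 0.31 for the 77 nuclear genes and 1.15 for the mt- genes, and none of either at its highest.

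**Figure D2:**
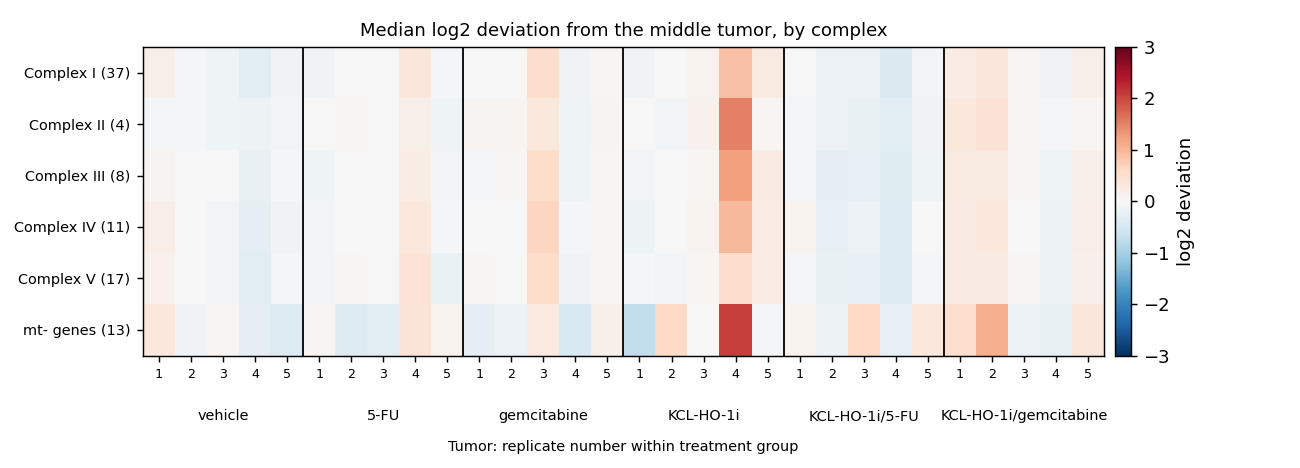
Median log2 deviation of the members from each gene's middle value over the 30 tumors, by complex (rows, number of genes in brackets, tissue isoforms left out) and tumor (columns, by group). KCL-HO-1i replicate 4 is red throughout, most in the mt- genes, and complex V is its palest nuclear row.

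The widest ranges of all belonged to the isoforms of muscle and brown fat. Cox8b, the muscle and brown fat isoform of a small complex IV subunit (chr7:140898945-140900446, minus strand), was 1.79, 0.872, 3.61, 1.95 and 3.42 CPM with vehicle. It was 4.23, 5.14, 17.6, 278 and 3.38 CPM with KCL-HO-1i, and 28.6, 49.0, 5.78, 3.84 and 7.25 CPM with KCL-HO-1i/gemcitabine. All 5 tumors of the latter were above the vehicle tumors, and the KCL-HO-1i tumors overlapped them at the lower end only. KCL-HO-1i/5-FU gave 4.97, 2.30, 8.72, 1.65 and 0.470 CPM, across the vehicle range and beyond it on both sides. In replicate 4 of KCL-HO-1i, Cox8b took 43.9% of the joint counts of Cox8b and its general partner Cox8a, against a median of 2.19% over the 30 tumors. Cox8a itself stayed between 152 and 355 CPM in all tumors.

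Cox7a1, the muscle and brown fat partner of Cox7a2 (chr7:30184144-30186078, plus strand), was also highest in KCL-HO-1i replicate 4. It was 9.58, 7.63, 2.90, 5.51 and 7.51 CPM with vehicle and 7.03, 7.60, 13.3, 142 and 11.8 CPM with KCL-HO-1i, and 41.7% of the pair in replicate 4 against a median of 5.71%. Cox6a2, the muscle isoform of Cox6a1, was highest in another tumor, KCL-HO-1i/gemcitabine replicate 2, at 58.4 CPM, then in KCL-HO-1i replicates 4 (19.3 CPM) and 3 (7.02 CPM), and at most 0.825 CPM in the other 27. It thus ordered the tumors as the muscle marker Acta1 (skeletal alpha-actin) did, at 3945, 1498 and 520 CPM in these 3 tumors. Of the remaining tissue isoforms, Cox4i2 was at most 2.29 CPM, Ndufa4l2 at most 4.32 CPM and Cox6b2, a testis isoform, at most 5.86 CPM, each under 2% of the pair with its partner. Cox7b2 and Cox8c, also testis isoforms, reached at most 0.0754 and 0.0939 CPM.

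**Figure D3:**
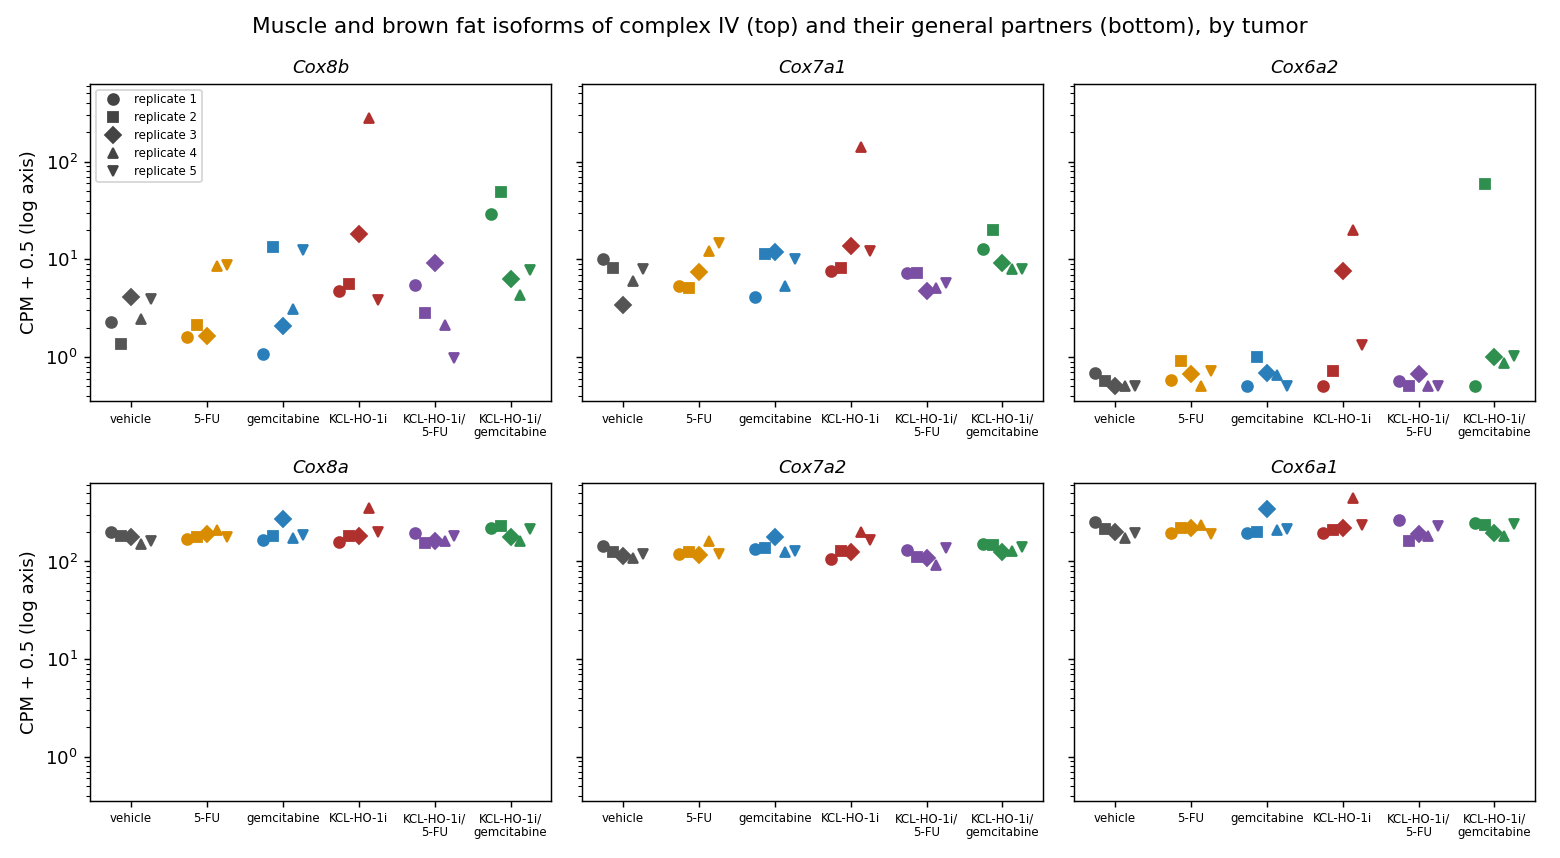
CPM plus 0.5 on a log axis of 3 muscle and brown fat isoforms of complex IV (top) and of their general partners (bottom) in each tumor, with symbols for the replicate number. Cox8b and Cox7a1 are highest in KCL-HO-1i replicate 4 (278 and 142 CPM), Cox6a2 in KCL-HO-1i/gemcitabine replicate 2 (58.4 CPM), and Cox8a stays between 152 and 355 CPM.

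The promoters of these isoforms and of their partners are shown because the pairs differed so widely in range. Each runs from 250 bases before to 50 bases after the start in RefSeq (GRCm38.p6, the assembly of mm10), 5′ to 3′ on the strand of the gene, with the motifs named below in capitals.
Cox8b promoter (chr7:140900397-140900696, minus strand): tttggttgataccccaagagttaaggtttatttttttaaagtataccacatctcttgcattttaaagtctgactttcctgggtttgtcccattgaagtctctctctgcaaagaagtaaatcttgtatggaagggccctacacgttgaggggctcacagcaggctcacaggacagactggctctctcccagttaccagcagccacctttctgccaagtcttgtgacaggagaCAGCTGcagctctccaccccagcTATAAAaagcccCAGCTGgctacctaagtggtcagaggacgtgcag
Cox8a promoter (chr19:7217567-7217866, minus strand): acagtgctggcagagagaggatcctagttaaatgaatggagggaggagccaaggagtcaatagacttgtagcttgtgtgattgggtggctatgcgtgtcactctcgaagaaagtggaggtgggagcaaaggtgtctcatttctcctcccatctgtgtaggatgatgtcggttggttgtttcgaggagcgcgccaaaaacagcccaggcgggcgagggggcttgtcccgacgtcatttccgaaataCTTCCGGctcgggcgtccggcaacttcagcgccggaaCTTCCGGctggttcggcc
Cox7a1 promoter (chr7:30183921-30184220, plus strand): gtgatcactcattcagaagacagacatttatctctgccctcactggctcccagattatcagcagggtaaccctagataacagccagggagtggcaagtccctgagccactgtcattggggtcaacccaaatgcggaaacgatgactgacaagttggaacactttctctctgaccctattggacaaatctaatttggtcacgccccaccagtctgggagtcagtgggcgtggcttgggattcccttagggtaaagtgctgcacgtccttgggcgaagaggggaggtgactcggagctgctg
Cox7a2 promoter (chr9:79759804-79760103, minus strand): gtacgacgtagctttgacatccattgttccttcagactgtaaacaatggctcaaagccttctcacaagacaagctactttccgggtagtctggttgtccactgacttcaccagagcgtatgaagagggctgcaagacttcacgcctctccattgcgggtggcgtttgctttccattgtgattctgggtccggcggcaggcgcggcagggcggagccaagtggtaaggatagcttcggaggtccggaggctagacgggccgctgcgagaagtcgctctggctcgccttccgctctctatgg
The Cox8b window held TATAAA once and CAGCTG at 2 places, the core of the E-box that muscle regulatory factors bind, and the Cox8a window held CCGGAAG, an ETS family motif, at 2 places on the reverse strand. Of the motifs searched, the Cox7a1 and Cox7a2 windows held none. The general isoforms had more CpG dinucleotides, 19 for Cox8a and 20 for Cox7a2 against 2 for Cox8b and 7 for Cox7a1. Promoter entries matched 68 of the 85 nuclear members, with 73 sequences, whose median was 19 CpG and 57.3% GC, against 7 CpG and 53.0% GC over all 32544 promoters. Counting both strands, TGCGCA (the core of the motif of the nuclear respiratory factor NRF1) was in 24.7% of the members' windows and 7.79% of all windows, CCGGAAG in 23.3% and 8.91%, and AAGGTCA (an estrogen-related receptor motif) in 8 of the 73 members' windows and 4.71% of all. TATAAA was in 12.3% and 13.6%, and CAGCTG in 8.22% and 16.4%. The motifs do not overlap each other in the 4 windows printed. A match is a description of the letters and not of a bound site.

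KCL-HO-1i against vehicle gave the highest levels of the members as a group, and these came with 1 tumor. In this comparison 78 of 81 nuclear members and 13 of 13 mt- genes were higher, with median log2 differences of 0.34 and 0.75 against -0.01 over all 13663 genes tested. Of all genes tested 6539 were higher. No member passed an adjusted p of 0.05 in edgeR's quasi-likelihood test with Benjamini-Hochberg adjustment, and neither did any gene (0%). In all, 33 nuclear members and 8 mt- genes were higher and none lower at an unadjusted p under 0.05, where 7.36% of all genes were higher and 2.08% lower. Without KCL-HO-1i replicate 4, none of the 82 nuclear members then tested and none of the 13 mt- genes was at that level (3.01% of all genes higher, 1.59% lower), and the medians were 0.10 and 0.03. The brown adipocyte and muscle markers moved with this comparison. With replicate 4 included, 6 of 8 and 19 of 19 tested were higher at an unadjusted p under 0.05. So were 11 of 12 white adipocyte markers. These counts without replicate 4 are not given here. The brown sums of KCL-HO-1i replicates 1, 2, 3 and 5 were 18.6, 18.1, 96.6 and 12.9 CPM, against at most 18.996 CPM with vehicle. In the same order the muscle sums were 24.6, 206, 2107 and 149 CPM, against at most 55.5 CPM. The white adipocyte sums were 482, 1619, 1214 and 118 CPM, against at most 637 CPM. The part of these markers in the members' difference was not tested. The KCL-HO-1i and vehicle tumors share no code number, so inhibitor and code number cannot be told apart in this comparison.

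By gene, the smallest p-values of KCL-HO-1i against vehicle were those of the isoforms. Cox8b was higher by 4.72 on the log2 scale (SE 1.21, edgeR adjusted p = 0.333), and by 1.70 (SE 0.900, adjusted p = 1.00) without replicate 4. Cox7a1 was higher by 2.45 (SE 0.640, edgeR adjusted p = 0.333), and by 0.57 without that tumor. Ndufa10, an accessory subunit of complex I, was 88.8, 91.2, 109, 83.4 and 102 CPM with vehicle and 114, 101, 127, 350 and 103 CPM with KCL-HO-1i. It was higher by 0.74 (SE 0.234, edgeR adjusted p = 0.339), and by 0.23 without replicate 4. Among the core subunits, Sdha was higher by 0.71 and Ndufs1 by 0.62 with all tumors, and their log2 differences were -0.04 and -0.03 without it.

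**Figure D4:**
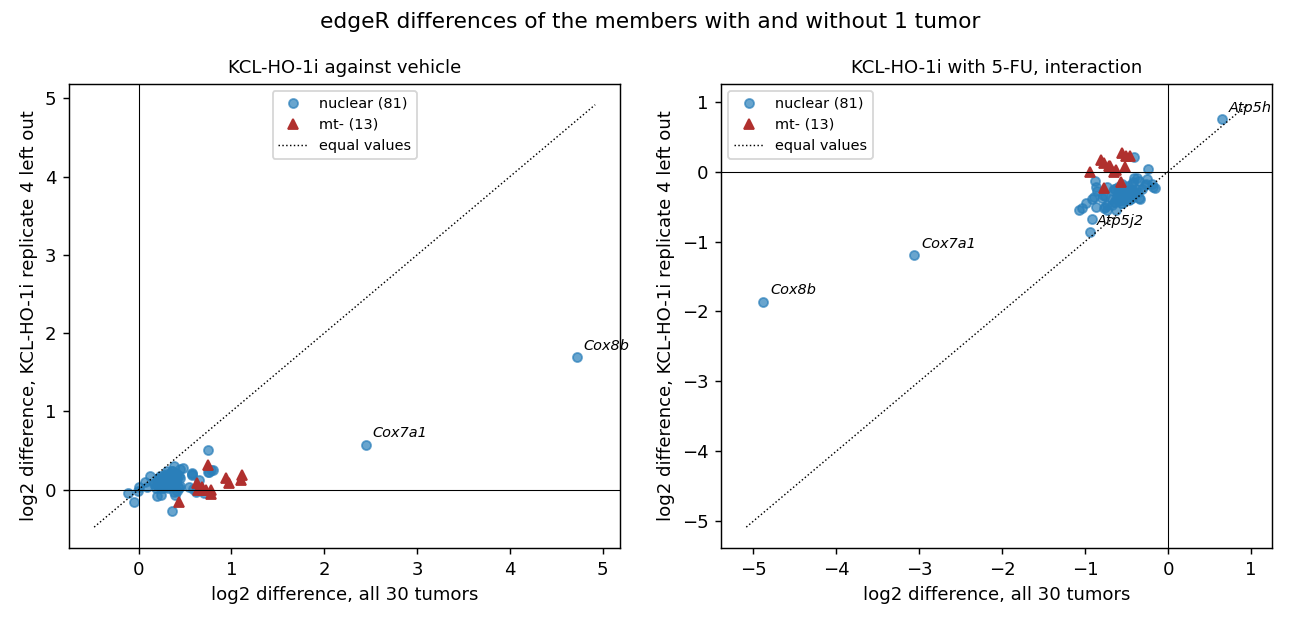
Log2 difference of each of the 94 tested members in edgeR with all 30 tumors (x axis) and with KCL-HO-1i replicate 4 left out (y axis), for KCL-HO-1i against vehicle (left) and the interaction of KCL-HO-1i with 5-FU (right). The dotted line marks equal values, and leaving out the tumor brings Cox8b from 4.72 to 1.70 and the mt- genes (triangles) close to 0.

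With chemotherapy alone most nuclear members had small positive differences from vehicle. With 5-FU 73 of 81 were positive, with a median log2 difference of 0.13, and with gemcitabine 79 of 81, with a median of 0.18. Over all genes tested 6858 and 7582 of 13663 were positive, with medians of 0.001 and 0.030. Most nuclear members were high or low in the same tumors, so these counts are not independent. The mt- medians were 0.02 and 0.03. With KCL-HO-1i replicate 4 left out, the nuclear medians were 0.13 and 0.17, beside the 0.10 of KCL-HO-1i against vehicle. No gene of the table passed the adjusted threshold (0% in both comparisons). Atp5j2, a small complex V subunit gene, was alone at an unadjusted p under 0.05 and was higher with 5-FU (0.49, SE 0.202, edgeR adjusted p = 0.999), where 1.65% of all genes were higher and 2.24% lower. Leaving out 5-FU replicate 2 brought its difference to 0.20. With gemcitabine no member was at that level in either direction, against 2.05% of all genes higher and 1.78% lower, but gemcitabine replicate 3 was high in most members, as described above. Leaving out KCL-HO-1i replicate 4, which is in neither group but shares the estimate of the spread, put 4 of 82 nuclear members higher with gemcitabine at that level (4.88%, against 2.13% of all genes). In the codes of the sample descriptions, 1 number covers 4 of 5 gemcitabine and 3 of 5 5-FU tumors. Neither group shares a number with the vehicle tumors. The differences from vehicle cannot be told apart from differences between these numbers, whose meaning is not given.

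The combinations were also without a member past the adjusted threshold, as was the whole table (0%). Against vehicle, KCL-HO-1i/5-FU had medians of -0.09 for nuclear members and 0.24 for mt- genes, and only Atp5h was at an unadjusted p under 0.05 (0.64 higher, SE 0.209, edgeR adjusted p = 0.136, and 0.45 without KCL-HO-1i/5-FU replicate 1), against 9.79% of all genes higher and 7.84% lower. In the fit without KCL-HO-1i replicate 4, 6 of 82 nuclear members were lower (7.32%, against 8.28% of all genes). The KCL-HO-1i/5-FU and vehicle tumors share no code number, so treatment and code number cannot be told apart there. KCL-HO-1i/gemcitabine had medians of 0.21 and 0.45, and 4 nuclear members were higher and none lower at that level, against 11.7% and 8.04% of all genes. Leaving out KCL-HO-1i replicate 4, 12 of 82 were higher (14.6%, against 12.1% of all genes). Leaving out KCL-HO-1i/gemcitabine replicate 2 instead, 2 of 82 were higher (2.44%, against 6.25% of all genes), and the medians were 0.16 and 0.18. The 4 included Cox8b (3.02, SE 1.14, edgeR adjusted p = 0.136, and 2.27 without KCL-HO-1i/gemcitabine replicate 2), Atp5l, a membrane subunit of ATP synthase (0.41, SE 0.159, adjusted p = 0.146), and Uqcrh, the hinge subunit of complex III (0.32, SE 0.152, adjusted p = 0.231). Atp5l was 203, 184, 175, 139 and 174 CPM with vehicle and 235, 236, 234, 212 and 246 CPM with the combination, which lay above all vehicle tumors. Uqcrh was 185, 158, 153, 135 and 139 CPM with vehicle and 193, 201, 190, 178 and 202 CPM with the combination, overlapping in 1 tumor of each. In limma-voom with quality weights both passed, with adjusted p = 0.0227 for Atp5l and 0.0256 for Uqcrh. How many of all genes passed in that fit was not counted.

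Adding KCL-HO-1i to 5-FU gave lower values for most nuclear members, and adding it to gemcitabine gave a nuclear median near 0. KCL-HO-1i/5-FU against 5-FU had a nuclear median of -0.21, with 78 of the 81 members lower, and a mt- median of 0.18. Over all genes tested 7277 of 13663 were higher, with a median of 0.02. At an unadjusted p under 0.05, 5 nuclear members were lower and 1 higher, against 5.26% of all genes lower and 6.18% higher. Without KCL-HO-1i replicate 4, again in neither group, 17 of 82 were lower (20.7%, against 5.99% of all genes). The counts of nuclear members are not independent here either. Of the 5 lower with all 30 tumors, leaving out 5-FU replicate 4, KCL-HO-1i/5-FU replicate 3 or KCL-HO-1i/5-FU replicate 4, each singly, gave a count of 1. Besides Atp5j2 (described below with Atp5h), the lowest p-values among those lower were those of Ndufc2, a complex I accessory subunit (-0.38, SE 0.169, edgeR adjusted p = 0.400), and Atp5g1 (-0.27, SE 0.127, adjusted p = 0.431). KCL-HO-1i/gemcitabine against gemcitabine had a nuclear median of 0.03 and a mt- median of 0.44, with no member at that level where 6.94% of all genes were higher and 6.51% lower. Without KCL-HO-1i/gemcitabine replicate 2 these medians were -0.04 and 0.20. The gemcitabine and KCL-HO-1i/gemcitabine tumors share no code number, so this difference cannot be told apart from one between the numbers. In neither comparison did a gene pass the adjusted threshold (0%).

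Averaged over the 3 backgrounds, KCL-HO-1i had a nuclear median of 0.06 and a mt- median of 0.44, with 13 of 13 mt- genes higher. Of all 13663 genes tested 6810 were higher. No member was among the 8 genes of the table that passed an adjusted p of 0.05 (0.0586%). At an unadjusted p under 0.05, 8 mt- genes and 2 nuclear members were higher and 1 nuclear member lower, against 13.7% of all genes higher and 9.22% lower. Cox8b was higher by 2.08 (SE 0.634, edgeR adjusted p = 0.0656), mt-Nd2 by 0.63 (SE 0.238, adjusted p = 0.115) and mt-Nd4 by 0.66 (SE 0.247, adjusted p = 0.116), and Atp5g1 had a difference of -0.18 (SE 0.0735, adjusted p = 0.135). With KCL-HO-1i replicate 4 left out, none of the mt- genes was at that level, their median was 0.20, and the differences of Cox8b, mt-Nd2 and mt-Nd4 were 1.06, 0.32 and 0.33. The nuclear median was then -0.02, with 34 of 82 nuclear members higher, where 6699 of 13779 genes were higher.

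The interaction with 5-FU, which compares the inhibitor's difference with 5-FU and without it, had the most nuclear members of any comparison at an unadjusted p under 0.05. They were 48 lower and 1 higher, against 4.51% of all genes lower and 4.03% higher, with a nuclear median of -0.56 and a mt- median of -0.65. None passed the adjusted threshold, nor did any gene (0%). Without KCL-HO-1i replicate 4, 16 of 82 nuclear members were lower at that level (19.5%, against 2.82% of all genes), with a median of -0.34, and the mt- median was 0.08. The nuclear members thus kept a negative median without that tumor, and the mt- genes did not. With all tumors and the code number as a covariate, 0 nuclear members were lower at that level. The share of all genes in that fit is not given here. Most nuclear members were high or low in the same tumors, so their counts are not independent. Ndufa10 had an interaction of -1.07 (SE 0.330, edgeR adjusted p = 0.420), and of -0.56 (SE 0.175, adjusted p = 0.714) without it. Cox7a1 had -3.06 (SE 0.884, adjusted p = 0.420), and -1.19 without it. The interaction with gemcitabine had medians of -0.30 and -0.36, and 2 nuclear members lower at that level, Cox7a1 (-1.99, SE 0.872, edgeR adjusted p = 1.00) and Ndufa10 (-0.71, SE 0.330, adjusted p = 1.00), against 0.695% of all genes lower and 0.644% higher, with no gene past the adjusted threshold (0%). Without replicate 4 these were -0.12 and -0.20, and the mt- median was 0.42. That mt- median was -0.58 without KCL-HO-1i/gemcitabine replicate 2 and 0.12 without both tumors, so its sign rested on single tumors. All these comparisons share tumors with each other. The average and the interactions contain the difference of KCL-HO-1i from vehicle, whose tumors share no code number.

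Over all 6 groups together, 0 members passed a test of any difference in edgeR, where 89 genes of the table did (0.651%). At an unadjusted p under 0.05 there were 17 of 81 nuclear members, a share near the 18.7% of all genes, and 1 of 13 mt- genes. The smallest adjusted p was that of Cox8b, 0.0521, and DESeq2 called 1 nuclear member. How many of all genes DESeq2 called was not counted. The order of the groups by mean nuclear share was KCL-HO-1i (1.56%), gemcitabine (1.39%), KCL-HO-1i/gemcitabine (1.37%), 5-FU (1.35%), vehicle (1.25%) and KCL-HO-1i/5-FU (1.14%), and neighbors in this order overlapped between tumors. Without replicate 4 the KCL-HO-1i mean was 1.34%, between those of 5-FU and vehicle.

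A pair of complex V genes departed from the rest of the nuclear members in single tumors, and the genes beside them on the chromosome departed in the same tumors. Atp5h (chr11:115415689-115419962, mm10) was 557, 226, 222, 392 and 462 CPM in the KCL-HO-1i/5-FU tumors, against 249, 269, 175, 311 and 189 CPM with vehicle. Replicates 1, 4 and 5 were above all vehicle tumors and replicates 2 and 3 within them. The median log2 deviation of the 55 tested genes within 1 Mb was 0.85, 1.02 and 0.97 in replicates 1, 4 and 5, and 0.04 and -0.01 in replicates 2 and 3. In gemcitabine replicate 4, Atp5h was 349 CPM and its neighbors deviated by 0.70. Over the 30 tumors Atp5h and the median of its neighbors gave r = 0.85 (Pearson) and rho = 0.65 (Spearman), and r = 0.80 without the 2 farthest tumors. These points share a library, and the coefficients are descriptions. The other 3 members on chromosome 11, Uqcr10, Uqcrq and Atp5g1, lie nearer its start and had log2 deviations between -0.54 and 0.08 in the 5 KCL-HO-1i/5-FU tumors. The Atp5h differences, 0.64 against vehicle and 0.60 against 5-FU (SE 0.209, edgeR adjusted p = 0.327), thus came with a neighborhood that differed too.

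Atp5j2 (chr5:145183698-145192062, mm10) was 516 CPM in 5-FU replicate 2 and between 151 and 334 CPM in the other 29 tumors. The 16 tested genes within 1 Mb had a median log2 deviation of 0.93 in that tumor, beside 1.25 for Atp5j2, and between -0.20 and 0.19 in the others. Over the 30 tumors Atp5j2 and that median gave r = 0.65 (Pearson) and rho = 0.31 (Spearman), and r = 0.26 without the 2 farthest tumors, so the relation rested on those. In KCL-HO-1i/5-FU it was 215, 189, 184, 151 and 201 CPM, and against 5-FU its difference was -0.66 (SE 0.203, edgeR adjusted p = 0.280). Without 5-FU replicate 2 that difference was -0.37. The interaction of KCL-HO-1i with 5-FU was -0.94 for Atp5j2 (SE 0.286, adjusted p = 0.420) and 0.65 for Atp5h (SE 0.295, adjusted p = 0.554). The number of copies of these regions was not measured here.

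**Figure D5:**
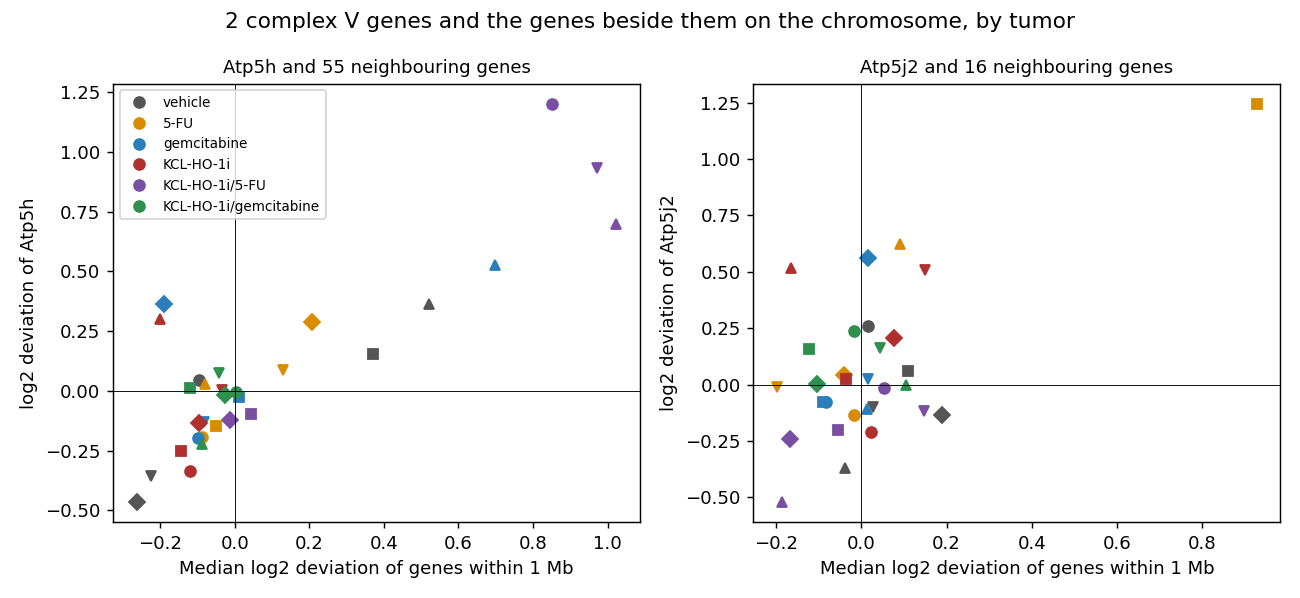
Log2 deviation of Atp5h (left) and Atp5j2 (right) from its middle value over the 30 tumors, against the median log2 deviation of the tested genes within 1 Mb (55 and 16 genes), 1 point per tumor, colored by group with symbols for the replicate number. KCL-HO-1i/5-FU replicates 1, 4 and 5 lie to the upper right for Atp5h, and 5-FU replicate 2 for Atp5j2.

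Genes that work beside the complexes were also examined. The lists were of enzymes of the tricarboxylic acid cycle, which supplies the electrons (13 genes tested), of assembly factors (50), of ubiquinone synthesis and other electron carriers (16), of mitochondrial DNA expression (29), of regulators of mitochondrial biogenesis (11) and of glycolysis (16). In KCL-HO-1i against vehicle none passed the adjusted threshold. At an unadjusted p under 0.05, 11 of 13 cycle enzymes were higher (median 0.73), as were 5 of 16 electron carriers (0.35), 6 of 50 assembly factors (0.17), 1 of 29 genes of mitochondrial DNA expression (0.07) and 2 of 11 regulators (0.09), with 1 regulator lower, and 0 of 16 glycolytic genes (-0.19), against 7.36% of all genes higher and 2.08% lower. Without KCL-HO-1i replicate 4 the only one higher at that level was 1 assembly factor, and the medians were 0.02 for the cycle enzymes, 0.03 for the carriers and 0.08 for the assembly factors, while 1 regulator and 2 glycolytic genes were lower. The cycle enzymes summed to 8763 CPM in that tumor, between 1750 and 2123 CPM in the other KCL-HO-1i tumors and between 1816 and 2067 CPM with vehicle. The cycle enzymes included Sucla2, a subunit of succinyl-CoA synthetase (1.34, SE 0.393, edgeR adjusted p = 0.333). Coq8a, which acts in ubiquinone synthesis, had 1.89 (SE 0.544, adjusted p = 0.333), and Ppara, a regulator of fatty acid oxidation genes, 4.45 (SE 1.02, adjusted p = 0.333). Without that tumor the log2 differences were 0.17 for Sucla2, 0.27 for Coq8a and 0.91 for Ppara (edgeR adjusted p = 1.00 for each). In the interaction with 5-FU, 8 of 13 cycle enzymes, 8 of 16 carriers and 15 of 50 assembly factors were lower at that level, and 0 of 16 glycolytic genes, against 4.51% of all genes. With that tumor left out these were 0 of 13, 1 of 16 and 9 of 50, against 2.82% of all genes. Over all 30 tumors, the nuclear sum had a Spearman rho of 0.77 with the mean of the assembly factors, 0.74 with that of the cycle enzymes and 0.09 with that of glycolysis. Without KCL-HO-1i replicate 4 these were 0.74, 0.71 and -0.00.

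The mt- sum and the epithelial markers ran in opposite directions. Its Spearman rho over the 30 tumors was -0.44 with the mean of 10 luminal epithelial markers, 0.40 with the brown adipocyte list and 0.36 with the white adipocyte list, and -0.40, 0.33 and 0.29 without KCL-HO-1i replicate 4. The nuclear sum had -0.14, 0.33 and 0.16 with the same lists, and -0.07, 0.26 and 0.08 without that tumor. With the skeletal muscle list the nuclear sum had 0.38 and the mt- sum 0.20, and 0.32 and 0.12 without that tumor. Cox8b had a rho of 0.71 with the brown adipocyte list, none of whose genes is a member, and of 0.67 without that tumor. With the skeletal muscle list Cox8b had 0.44, and 0.38 without that tumor. The points are tumors that share libraries and depth between both measures, and the coefficients are descriptions.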

How the data were processed

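RNA from 30 mammary tumors was extracted with a column kit and made into strand-specific libraries. By the methods of the study and the processing notes of the submitters, the authors checked reads with FastQC (0.11.9) and used STAR (2.7.9a), Salmon (1.9.0) and DESeq2 with mm10. The annotation release is not given in the sources used here. The deposited table holds estimated counts per gene, summed by the authors from transcripts, of which 38.0% are not whole, and these were rounded to whole numbers before testing. All 30 columns were matched to samples by their labels.

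Genes with low counts were left out with filterByExpr of edgeR (4.0.16, minimum count 10), which kept 13663 of 21841 genes. Counts were scaled by TMM and fitted with robust quasi-likelihood models of the 6 group means, with Benjamini-Hochberg adjustment over all 13663 genes and a threshold of 0.05. CPM are counts scaled to the TMM-adjusted library size, and log2 values of single tumors used CPM plus 0.5. A log2 deviation is the difference from the gene's median over the tumors. Hmox1 was tested with two-sided exact permutation (scipy 1.17.1). Nothing in the labels says that the tumors of a group came from separate litters, so p-values measure the spread between these samples. Positions came from GENCODE M21 and promoters from RefSeq, both on GRCm38. The test was also run on simulated counts. These held no outlying tumor and no code numbers, so that run does not check the test for such features.

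Alternatives were RLE scaling, DESeq2 (1.42.0), limma-voom (limma 3.58.1), no low-count filter, a minimum mean of 50 counts, library sizes without mt- genes, a replicate block, the number in the code of the sample descriptions as a covariate (its meaning is not given, and 1 of the 13 numbers covers 4 of 5 gemcitabine and 3 of 5 5-FU tumors), fits of only the 2 groups compared, and leaving out each library. Leaving out KCL-HO-1i replicate 4 with KCL-HO-1i/gemcitabine replicate 2 was chosen after seeing the data. Genes given with their folds were, in each comparison, up to 3 higher and 3 lower members with the smallest p among those at an unadjusted p under 0.05, besides core subunits, tissue isoforms and mt- genes. Atp5h and Atp5j2 neighbors and the ring subunit genes were chosen after their values were seen. The members and lists were chosen with earlier results of these data known. Counts at an unadjusted p are read against the share of all genes, and counting intervals would cover counting error only. No pair of tumors in a group agreed within sampling noise (lowest chi-square per degree of freedom 20.2 over 60 pairs).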

Additional observations from a re-analysis of the deposited data

Results flagged for a closer look

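Within groups of 5 tumors, a tumor was singled out when its gap to the nearest other, divided by the range of the group, was above 0.710, and chance alone singles out about 1 in 20 groups. Of 102 groups of values examined, 14 had such a tumor, and 8 of these were KCL-HO-1i replicate 4. It stood out in the share of counts from mt- genes (9.69%, next 3.51%), the share from nuclear members (2.44%, next 1.47%), Cox8b (278 CPM, next 17.6), Cox7a1 (142 CPM, next 13.3), Ndufa10 (350 CPM, next 127), mt-Nd2 (6767 CPM, next 1857), mt-Nd4 (10064 CPM, next 2839) and Ndufa4l2 (3.58 CPM, next 1.34). Gemcitabine replicate 3 stood out in the nuclear share (1.84%, next 1.33%), Atp5j2 (320 CPM, next 221), Atp5g1 (281 CPM, next 185) and Ndufc2 (252 CPM, next 144). 5-FU replicate 4 stood out in Uqcrh (216 CPM, next 155). KCL-HO-1i/gemcitabine replicate 2 stood out in Cox6a2 (58.4 CPM, next 0.537). The values belong to the same libraries and are not independent.

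In 7 members every KCL-HO-1i tumor was above the vehicle mean and every KCL-HO-1i/5-FU tumor below the 5-FU mean, so that the differences with the inhibitor pointed in opposite directions. How many of all genes had this pattern was not counted. The differences between the mean log2 effects (5-FU minus vehicle background) were -1.82 for Cox7a1, -0.88 for Ndufa10, -0.57 for Ndufb10, -0.41 for Ndufb2, -0.70 for Ndufb6, -0.75 for Ndufb8 and -0.86 for Sdhb. The interaction of KCL-HO-1i with 5-FU in edgeR did not pass for any of the 7, with adjusted p of 0.420 for Cox7a1 and Ndufa10 and 0.482 for Sdhb. That interaction was smaller in size for each of the 7 without KCL-HO-1i replicate 4. It went from -3.06 to -1.19 for Cox7a1, from -1.07 to -0.56 for Ndufa10 and from -1.04 to -0.52 for Sdhb. Between the 5-FU and gemcitabine backgrounds, Cox7a1 (0.92) and Uqcrh (0.41) had effects of opposite sign in every tumor, and that difference was not tested.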

How the results depend on the processing

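No mt- gene passed an adjusted p of 0.05 in any comparison under any alternative. For nuclear members, DESeq2 called 1 in KCL-HO-1i against vehicle, KCL-HO-1i/gemcitabine against vehicle, the average over 3 backgrounds and the test of any difference, limma-voom called 3 in KCL-HO-1i/gemcitabine against vehicle, and testing without a filter called 1 in the test of any difference. Leaving out each library gave 0 to 1 in KCL-HO-1i/gemcitabine against vehicle, 0 to 1 in the average and 0 to 3 in the test of any difference, where 25 of 30 such fits called at least 1 and the fit without KCL-HO-1i replicate 4 called 0. The shares of all genes called in these alternatives are not given here, so these counts cannot be read as a result about the members.

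At an unadjusted p under 0.05, the 33 nuclear members higher with KCL-HO-1i became 5 in limma-voom, 19 with the replicate block, 0 with the code number, 8 with only the 2 groups, 0 with KCL-HO-1i replicate 4 and KCL-HO-1i/gemcitabine replicate 2 both left out, and 0 to 46 leaving out each library. The 8 mt- genes became 0, 1, 0, 0 and 0 in the same order, and 0 to 12. The 8 mt- genes of the average became 5 in limma-voom, 5 with the replicate block, 0 with the code number, 0 with both tumors left out and 0 to 10. The 48 nuclear members lower in the interaction with 5-FU became 12, 0 with the code number, 15 with both left out and 16 to 60. The lowest of each range was without KCL-HO-1i replicate 4. The causes of the other shifts were not tested. Vehicle tumors shared no code number with the 5-FU, gemcitabine, KCL-HO-1i or KCL-HO-1i/5-FU tumors, so those comparisons rest there on links through other groups. Replicate numbers did not pair the tumors: 23 of 75 same-number pairs correlated over 0.1 (mean 0.00543, against 0.00200 for other pairs), and the replicate block changed no adjusted call. Tumors of different groups with the same code number had a mean correlation of 0.0624 over 24 pairs.

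Of 867 alternative values of the 22 named differences, 5 reversed, all with the code number: Atp5j2 with 5-FU (-0.19), Cox7a1 with KCL-HO-1i (-0.91) and in the interactions with 5-FU (0.76) and gemcitabine (2.69), and Ndufa10 in the latter (0.52). The Hmox1 difference of KCL-HO-1i was 1.18 to 1.84 leaving out each library. Shares without mt- rRNAs and tRNAs were not run.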
